A study of Danio rerio with 19 samples.

Results

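The miR-181 family was followed in zebrafish (Danio rerio) that express the oncogene HRAS and in their controls, on 19 microarrays. Its members were the known miRNA probes whose array name starts with dre-mir-181, on either arm of the hairpin, 16 of the 546 known probes. Several of them carry the same sequence, so that the 16 probes stand for 11 of the 411 distinct known sequences, 3 from left arms and 8 from right arms. The family was chosen by name, and selected on its adult ratio of tumor over fin and on the level in control fins, so every adult value below is a description without a test. Each array held RNA of HRAS fish in the green channel (Hy3) and RNA of AB wild type fish in the red channel (Hy5), and without dye swaps a dye bias of a probe stays in its ratio. In kita:HRAS, Gal4 made from the kita promoter turns the oncogene on in melanocytes and in the notochord. Of this line 4 arrays were made at 3 days post-fertilization (dpf), 3 at 7 dpf and 3 at 14 dpf. In zic:HRAS the zic4 promoter drives it in brain cells (3 arrays at 3 dpf). In hsp70:HRAS a heat shock of 30 min at 37°C at 3 dpf switched it on, RNA was taken 6 hours later, and the AB controls were heat-shocked too (3 arrays). Pools held 15 larvae at 3 and 7 dpf and 5 at 14 dpf, from different parents for each replicate. The 3 adult arrays compared single fins with tumor of kita:HRAS fish with single AB fins, so that tumor and fin tissue were measured together. No control carried a transgene, and the Gal4 and mCherry of the kita and zic lines were therefore present on the HRAS side alone. In such whole larvae and fins, fewer cells of a type and less RNA per cell cannot be told apart.

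A miRNA is cut from a hairpin, and either of its arms, here called left (5′) and right (3′) as on the array, can give a mature strand. The strand pairs with target mRNAs mainly through its seed, bases 2 to 8. miR-181 strands are known in fish for their expression in brain and retina, and in mice miR-181a is known for tuning the sensitivity of the T cell receptor. RefSeq's annotation of the zebrafish assembly GRCz12tu lists 10 mir181 genes, and all 10 lie next to another gene of the family, mir181a genes next to mir181b, mir181c or mir181d. Because the left-arm sequences of miR-181a and of miR-181b are each shared between hairpins, their signals could not be assigned to a single gene. The other sequences were not matched to these genes. The array files gave no map position for the 16 probes.

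The left-arm sequences are shown first because the adult values turn on them. They were read from the 22-base antisense part of the probes, and the capitals mark the seed, which all 3 share.
miR-181a left: aACAUUCAacgcugucggugag
miR-181b left: aACAUUCAuugcugucgguggg
miR-181c left: cACAUUCAuugcugucgguggg
Counted from the 5′ end, miR-181b differed from miR-181a at 3 of 22 bases (A9U, C10U and A21G), and miR-181c differed from miR-181b at 1 base (A1C). The probes for miR-181b and miR-181c were thus nearly the same, and how far each binds the other's RNA was not tested. miR-181a left was read by 5 probes, miR-181b left by 2 (dre-mir-181b-1_l and dre-mir-181b-2_l) and each other sequence by 1, with 2 spots a probe.

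The right-arm sequences are shown because the 14 dpf values turn on them. Capitals mark the longest run shared within the miR-181a set and within the miR-181b and miR-181c set. The array gives the same name to 3 miR-181a right-arm sequences, which are told apart here by their probe names.
miR-181a-1 right: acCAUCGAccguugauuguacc
miR-181a-2 right: acCAUCGAccguugacuguacc
miR-181a right zfmir536: acCAUCGAccguugacugugcc
miR-181a right zfmir538: acCAUCGAguguugaguguacc
miR-181a right zfmir500: CAUCGAccguuggcugugcccu
miR-181b-1 right: agcucucugaaCAAUGAAUGua
miR-181b-2 right: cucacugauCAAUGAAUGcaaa
miR-181c right: gacucgccggaCAAUGAAUGag
The miR-181a-1 and miR-181a-2 right arms differed at 1 base, and so did miR-181a-2 and zfmir536. The zfmir538 right arm differed from miR-181a-1 and from miR-181a-2 at 3 bases. Aligned on the shared run, zfmir500 differed from zfmir536 at 1 base of their overlap. The miR-181a right arms are thus not independent readings. The longest run common to the miR-181b-1, miR-181b-2 and miR-181c right arms was 9 bases, and miR-181b-1 and miR-181c differed at 7 of 22 bases.

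Arrays lay on 3 slides. Slide 1 held kita:HRAS replicates 1 and 2 at 3 dpf with all 7 and 14 dpf arrays, slide 2 held replicates 3 and 4 at 3 dpf with the adult arrays, and slide 3 held zic:HRAS and hsp70:HRAS. Between 49.0% and 89.5% of the spots of known probes were well above background in the HRAS channel, lowest on slide 2. No spot of the family was saturated. Sequences entered a test if most arrays of the group had them well above background in 1 channel at least. It was called when limma's Benjamini-Hochberg adjusted p, over all known sequences tested, was below 0.01 and the linear fold above 1.2.

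In the adult fins with tumor all 3 left-arm strands were higher than in control fins on every array. The log2 ratio of HRAS over control signal of miR-181a left was 1.50, 0.96 and 1.59 on the 3 arrays, with a mean of 1.35 ± 0.34 (SD, n = 3), or 2.55-fold. That of miR-181b left was 2.61, 2.13 and 2.57, with a mean of 2.44 ± 0.27 (SD, n = 3), or 5.42-fold. That of miR-181c left was 2.49, 1.89 and 2.55, with a mean of 2.31 ± 0.36 (SD, n = 3), or 4.96-fold. Replicate 2 was the lowest for all 3 strands. On every array miR-181b and miR-181c lay above miR-181a, by 1.09 ± 0.09 and 0.96 ± 0.03 on the log2 scale (SD, n = 3), while miR-181c lay 0.13 ± 0.10 below miR-181b. Of the 254 known sequences tested in the adult, 2 had a higher mean ratio than miR-181b, 3 than miR-181c and 15 than miR-181a. A ratio above 0 on all 3 arrays was found for 31.1% of them, and their median was −0.12. Probes of identical sequence gave like values, from 1.31 to 1.38 over the 5 miR-181a probes and from 2.42 to 2.45 over the 2 miR-181b probes. With background correction by normexp and loess normalization the means were smaller, 1.21 for miR-181a, 1.83 for miR-181b and 1.55 for miR-181c.

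**Figure D1:**
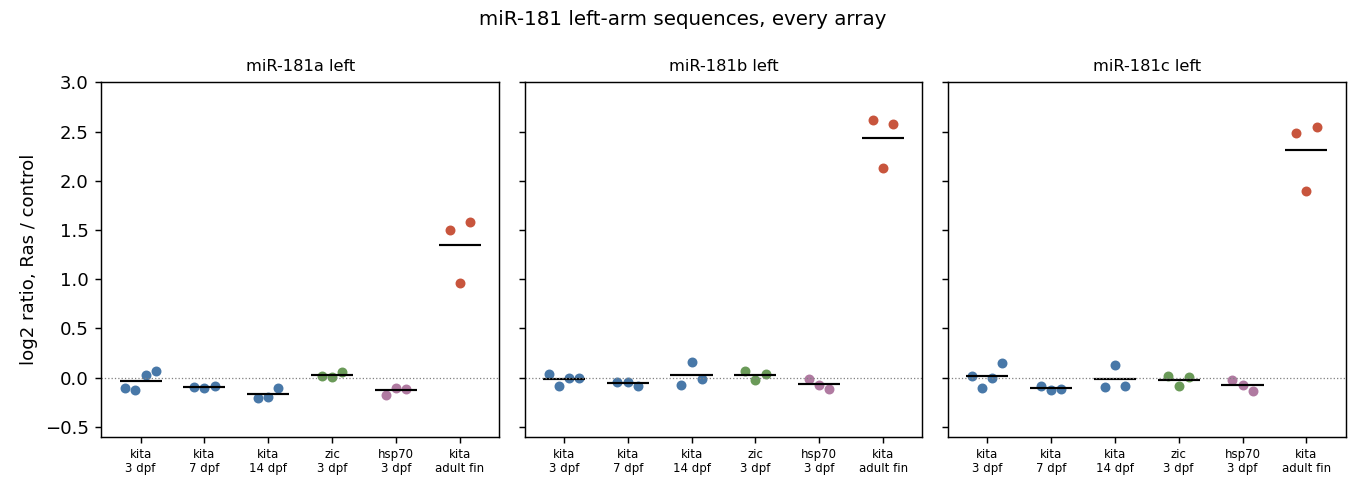
Log2 ratio of HRAS over control signal (y axis) of the 3 left-arm sequences on every array, by group (x axis); each point is 1 array, the black line is the group mean and the dotted line marks a ratio of 0. The 3 adult fins lie between 0.96 and 2.61, and the larval arrays lie near 0.

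The right arms in the adult were not of one direction. The miR-181a-2 right arm had log2 ratios of 1.13, 0.45 and 1.57, a mean of 1.05 ± 0.56 (SD, n = 3). The miR-181a-1 right arm had 0.85, 0.30 and 1.23, a mean of 0.79 ± 0.47 (SD, n = 3). The right arm zfmir536 was above 0 on all 3 arrays as well, with a mean of 0.60, while zfmir538 had 0.56, −0.0043 and 1.66 and zfmir500 had 0.28, 0.10 and −0.60. The spread of these values was wide. With normexp and loess the median over all 8 right arms, the 3 dim ones named below included, was 0.12 in place of 0.67. A ratio below 0 on all arrays was found for 42.9% of the 254 sequences tested. The other 3 right arms were too dim to be tested. The miR-181c right arm was well above background in neither channel on any of the 3 arrays, and the miR-181b-1 right arm on 1 array in each channel, replicate 3, on which 514 spots carried an outlier flag against at most 1 on the other adult arrays. For the miR-181b-2 right arm, 1 of 3 arrays was well above background with HRAS RNA and none with control RNA. Its mean log2 ratio of 1.97 is thus no measure of size.

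The channels were also read separately. On slide 2, which held both 3 dpf and adult arrays, the control level of miR-181b left was 10.66 and 10.77 on the log2 scale in 3 dpf larvae and 8.93, 9.06 and 7.79 in adult fins. In the HRAS channel it was 10.68 and 10.65 in larvae and 10.79, 10.63 and 9.83 in fins with tumor. The adult control fins thus lay apart from both the larvae and the fins with tumor, whose values reached the larval ones on 1 array and stayed below on 2. The mean control level in fins minus that in larvae was −1.28 for miR-181a, −2.12 for miR-181b and −1.80 for miR-181c on the log2 scale. In the HRAS channel the same differences were −0.11, −0.25 and −0.22. Replicate 3, the adult array with 514 outlier-flagged spots, was the lowest for miR-181b and miR-181c in both channels. For miR-181c the HRAS levels were 10.29, 10.05 and 9.22 in fins with tumor and 10.11 and 10.04 in larvae. The HRAS differences of miR-181b and miR-181c thus rest on that array. Of the right arms, miR-181a-1, miR-181a-2 and zfmir536 were well above background in both channels of all 3 adult arrays, with fin minus larva differences of −1.62, −1.65 and −1.15 in the control channel and −1.21, −0.88 and −0.97 in the HRAS channel. For zfmir538 the differences were −1.06 and −0.80, and for zfmir500, well above background on 2 control and 1 HRAS array of the fins, −0.37 and −0.21. The miR-181b-1, miR-181b-2 and miR-181c right arms were too dim in the fins for a size to be given. In the fins miR-181b-1 was well above background on replicate 3 alone. There its control level was 8.42, against 6.23 and 6.32 on replicates 1 and 2 and 6.30 and 6.24 in the larvae. In the HRAS channel it was 7.95, against 6.18 and 6.21 on replicates 1 and 2 and 6.14 and 6.13 in the larvae. Age, tissue and whole larva against fin changed together here and cannot be told apart.

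Levels of cell type linked miRNAs were read in the adult fins as well. Of the 254 sequences tested there, 31.1% were above and 42.9% below 0 on every array. Of the 4 sequences of miR-204, a miRNA linked to pigment cells, 3 were above 0 on all arrays, with miR-204 left at a mean log2 ratio of 4.07, and their summed signal ran from 55470 to 180248 in the fins with tumor and from 4994 to 9360 in control fins. All 11 tested muscle sequences (miR-1, miR-133, miR-206 and miR-499) and all 5 tested skin epithelium sequences (miR-203 and miR-205) were below 0 on every array, with medians of −1.09 and −1.52. The summed muscle signal was 166176 to 542797 with tumor and 306283 to 982620 without, and the summed skin signal 25120 to 61054 and 60104 to 135246. Of the 6 tested white blood cell sequences (miR-142, miR-150, miR-155 and miR-223) 1 was above 0 and 2 were below 0 on every array, and 1 of the 8 on the array, miR-155 right, was well above background nowhere. Their summed signal was 3865 to 9179 with tumor and 4589 to 14722 without. The 4 erythroid sequences (miR-144 and miR-451) had none above and 2 below 0 on every array, with sums of 16323 to 53457 and 30364 to 57377. Of the 16 tested brain sequences (from miR-9, miR-124, miR-138 and other miRNAs enriched in neural tissue) 5 were above 0 and 6 below on every array, 12 of all 29 were nowhere well above background in fins with tumor, and 11 in control fins, with sums of 24449 to 40790 and 9883 to 22583. The part of these cell types in the miR-181 ratios was not tested.

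In larvae no left arm was farther from a log2 ratio of 0 than 0.211 on any of the 16 arrays. At 3 dpf the group means of the 3 strands ran from −0.03 to 0.01 in kita:HRAS, from −0.02 to 0.03 in zic:HRAS and from −0.13 to −0.07 in hsp70:HRAS. At 7 dpf they ran from −0.11 to −0.06 and at 14 dpf from −0.17 to 0.02, with SEs of 0.05 to 0.06. All 3 strands were below 0 on every array of hsp70:HRAS and at 7 dpf, as were 19.4% and 24.5% of the sequences tested there. None was called in any of the 5 comparisons, in which 1.10% (kita:HRAS, 3 dpf), 1.24% (zic:HRAS), 5.94% (hsp70:HRAS), 2.75% (7 dpf) and 24.1% (14 dpf) of the known sequences tested were called in either direction. Without adjustment limma's p fell below 0.05 for miR-181a left in hsp70:HRAS and at 14 dpf, and for no other left arm. The share of all sequences with such a p was not counted. At 14 dpf miR-181a left was at −0.21, −0.19 and −0.11, a mean of −0.17 (limma adjusted p = 0.0206), and with each array centred on its median the mean was −0.03 (limma adjusted p = 0.779). The 95% intervals of all left-arm means lay between −0.28 and 0.14. On slide 2, which the adult arrays share with kita:HRAS replicates 3 and 4 at 3 dpf, the left arms of these larvae lay from −0.0043 to 0.145.

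In kita:HRAS larvae at 14 dpf all 8 right arms were below 0 on all 3 arrays, as were 54.5% of the 365 sequences tested, and 7 of 8 were called as lower, against 21.6% of those tested and 25.7% of the 179 right arms among them. The median over the 8 was −1.19, and over all sequences tested −0.16. A split between arms was found outside the family too, with either arm the lower. The miR-124 left arms had means of −1.33 to −1.78 and the right arm 0.04. The miR-206 left arms had −1.31 and −1.47 and the right arm 0.11, while miR-205 had −1.35 (right) and −0.04 (left). Splits were also found in miR-223 (−1.45 left, 0.18 right), miR-153c (−0.91 left, −0.04 right) and miR-499 (−0.15 left, −1.13 right). The arms of miR-144 (0.40 left, 0.52 right) and of miR-128 (0.02 and −0.15 left, −0.24 right) did not part like this. Nor did those of miR-150 (−0.29 left, 0.04 right). These examples come from the marker lists, and splits were not counted over all hairpins. The split was thus not particular to miR-181, but how common it is cannot be said. The miR-181a-2 right arm had log2 ratios of −0.95, −2.23 and −0.59, and its mean of −1.26 ± 0.86 (SD, n = 3) was 2.39-fold lower (limma adjusted p = 0.00103). The miR-181b-2 right arm had −1.05, −2.09 and −0.66, a mean of −1.27 ± 0.74 (SD, n = 3, limma adjusted p = 0.00102). Replicate 2 was the lowest in both. The other miR-181a right arms, close in sequence to miR-181a-2, are not independent of it. The zfmir536 right arm had −1.27, −2.16 and −0.60 (mean −1.34, limma adjusted p = 0.000992), zfmir538 had −0.85, −1.62 and −0.73 (mean −1.07, limma adjusted p = 0.000881) and the miR-181a-1 right arm had −0.91, −2.08 and −0.53 (mean −1.17, limma adjusted p = 0.00110). The zfmir500 right arm had −0.88, −2.25 and −0.51 (mean −1.21, limma adjusted p = 0.00520) and the miR-181c right arm −0.58, −1.30 and −0.45 (mean −0.78, limma adjusted p = 0.00646). The miR-181b-1 right arm, with −0.17, −0.86 and −0.24, was not called (mean −0.42, limma adjusted p = 0.134).

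The share of all sequences called was counted for the settings above alone, not for the alternatives that follow. With normexp and loess 6 of the 8 were called, and the ratios were less negative. The means were then −0.98 for miR-181a-2, −0.92 for miR-181a-1, −0.87 for zfmir536, −0.63 for miR-181b-2, −0.57 for zfmir500 and −0.35 for zfmir538, while miR-181c, at −0.28, was not called (limma adjusted p = 0.0297).

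Replicate 2 carried much of the size of these values. On that array the median over the right arms was −2.09 while the median over the left arms was 0.13, and on replicates 1 and 3 the right-arm medians were −0.90 and −0.56. The background-subtracted and dye-normalized signals of the miR-181a-2 right arm were 2999, 7895 and 4599 in the control channel of replicates 1, 2 and 3. They were 1542, 1680 and 3050 in the HRAS channel. Replicate 2 thus had the brightest control. Without replicate 2 the called right arms were 5 in place of 7, with miR-181a-2 at −0.77 (limma adjusted p = 0.00174), miR-181a-1 at −0.72, zfmir536 at −0.93, zfmir538 at −0.79 and miR-181b-2 at −0.86, while zfmir500 (−0.70, limma adjusted p = 0.0825) and miR-181c (−0.52, limma adjusted p = 0.101) were no longer called. Without replicate 1 these same sequences were again not called (limma adjusted p = 0.0130 and 0.0163). Fitted on the 3 arrays alone, with no spread shared with the other larval groups, none of the 8 was called (limma adjusted p from 0.146 to 0.206). The marker lists, which hold both arms, were read at 14 dpf as well. Of all 365 sequences tested there 54.5% were below and 18.1% above 0 on every array, and their median was −0.16. Of 29 tested brain sequences 18 were below 0 on every array (median −0.51). So were 9 of 14 muscle sequences (median −0.52) and 4 of 6 skin sequences (median −0.40). All 4 erythroid sequences were above 0 (median 0.46). Summed signals of the brain list overlapped, 687687 to 963017 with HRAS and 737413 to 1036390 without, and so did those of muscle, 286716 to 446130 and 294391 to 407397, and of skin, 86428 to 110420 and 87600 to 125265. Those of the erythroid list were 52113 to 91963 with HRAS and 42908 to 49862 without, with no overlap. Of the 4 miR-204 sequences 1 was above and 1 below 0 on every array (median 0.12), with miR-204 left at 0.67, and their sums did not overlap either, 32408 to 40570 with HRAS and 21103 to 26884 without. Of 7 tested white blood cell sequences 2 were above and 2 below 0 on every array (median −0.07), with sums of 34996 to 53069 and 32089 to 47768. Their part in the right-arm ratios was not tested.

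**Figure D2:**
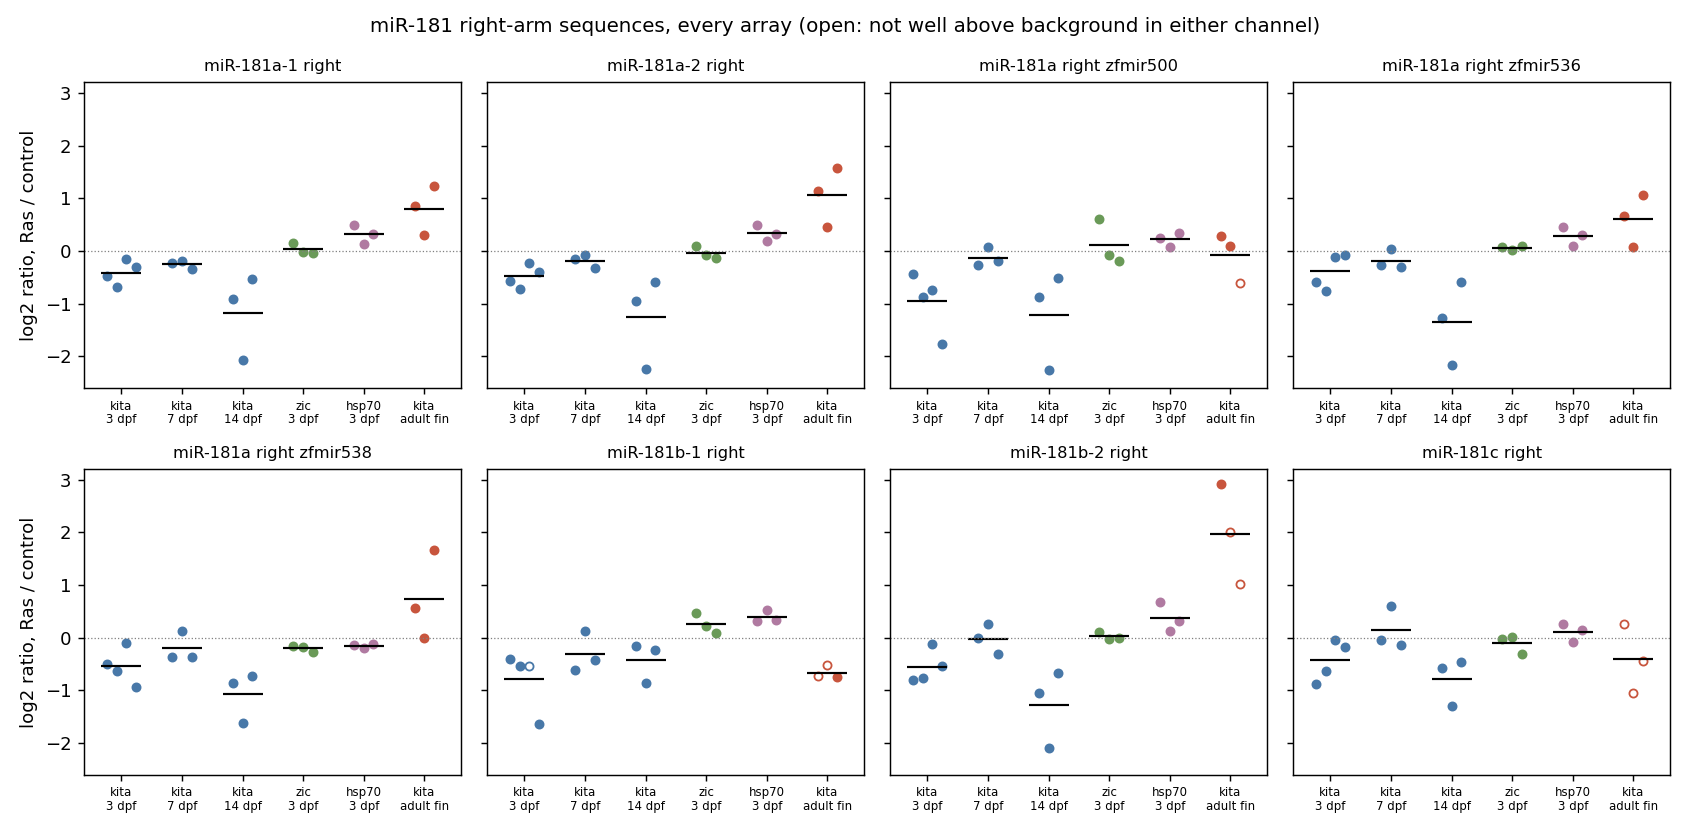
Log2 ratio of HRAS over control signal (y axis) of the 8 right-arm sequences on every array, by group (x axis); each point is 1 array, open where neither channel was well above background, and the black line is the group mean. All 8 lie below 0 on the 14 dpf arrays of kita:HRAS, lowest on the middle point, replicate 2.

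At 3 dpf all 8 right arms were below 0 on all 4 kita:HRAS arrays as well, a pattern found in 27.1% of the 273 sequences tested. Their means ran from −0.96 (zfmir500) to −0.38 (zfmir536), and none was called (limma adjusted p from 0.0171 to 0.168). The lowest adjusted p was that of miR-181b-1. Without adjustment limma's p fell below 0.05 for 7 of the 8, a share that was not counted over all sequences. In the HRAS channel zfmir500 and miR-181b-1 were well above background on 2 of 4 arrays. Their lowest ratios, −1.76 and −1.64, came from replicate 4, where neither was. The miR-181a-2 right arm had −0.56, −0.72, −0.24 and −0.40, and the miR-181c right arm had −0.88, −0.64, −0.04 and −0.17. Over the 8 right arms the median was −0.54 and −0.71 on the 2 arrays of slide 1 and −0.14 and −0.46 on the 2 of slide 2. At 7 dpf 2 of 8 right arms were below 0 on all arrays, as were 24.5% of the 363 sequences tested. These were miR-181a-1 with −0.23, −0.18 and −0.35 and miR-181a-2 with −0.16, −0.08 and −0.32, which differ at 1 base. None of the 8 was called at 7 dpf or had a limma p below 0.05.

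In the brain and heat-shock models the right arms lay near or above 0. In zic:HRAS their means ran from −0.20 to 0.26 and in hsp70:HRAS from −0.15 to 0.39. In hsp70:HRAS 6 of 8 were above 0 on every array (31.6% of the 320 sequences tested), among them miR-181b-1 with 0.32, 0.53 and 0.34 and miR-181a-2 with 0.49, 0.18 and 0.32. In zic:HRAS miR-181b-1 and zfmir536 were above 0 on every array (35.1% of the 322 sequences tested). The zfmir538 right arm was below 0 on all arrays of both models (24.5% and 19.4% of those tested). None was called in either model or had a limma p below 0.05.

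A difference between ages or models was tested directly. Over kita:HRAS at 3, 7 and 14 dpf, limma's F test passed for 0 of the 11 sequences, against 0.741% of the 270 tested. Its limma adjusted p ran from 0.0492, shared by zfmir536 and miR-181b-2, to 0.710. Without adjustment limma's F test had p below 0.05 for 7 of the 11, a share not counted over all sequences. Over the 3 models at 3 dpf the F test passed for 0 of 11 as well, against 0.377% of 265. Its limma adjusted p ran from 0.0346, for miR-181b-1, which was dim in kita:HRAS, to 0.691. Without adjustment limma's F test had p below 0.05 for 4 of the 11, again not counted over all sequences. Compared on their common slide, hsp70:HRAS and zic:HRAS differed by −0.16 to 0.37 over the 11 sequences, and none passed (limma adjusted p from 0.431 to 0.965).

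**Figure D3:**
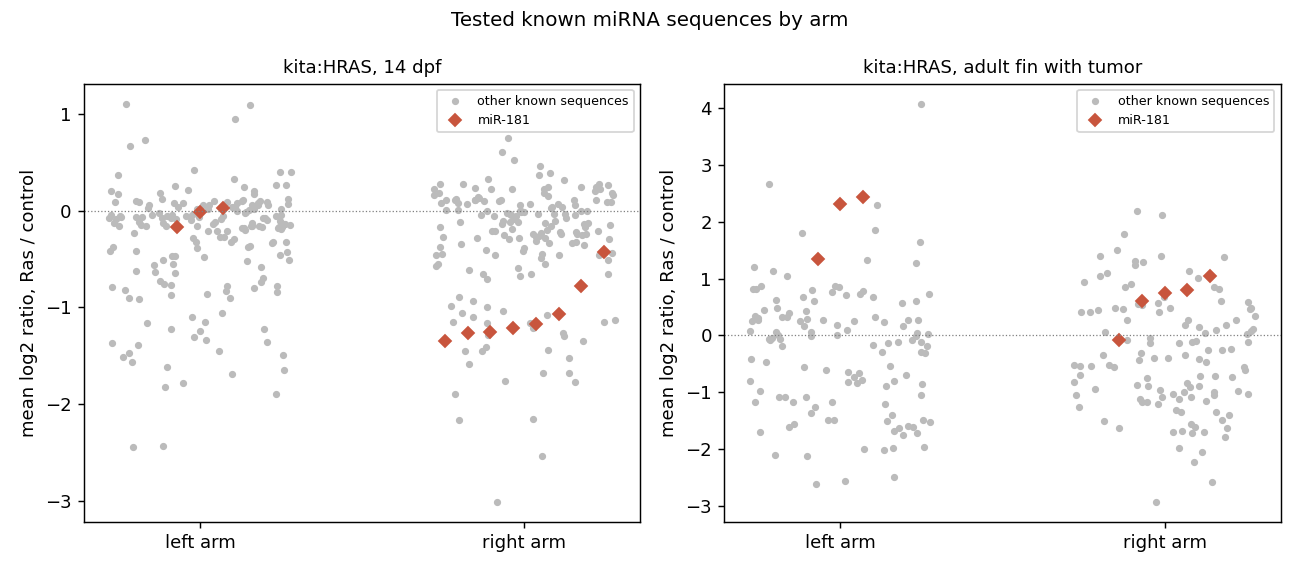
Mean log2 ratio of HRAS over control signal (y axis) of all known sequences tested, by arm (x axis), at 14 dpf (left panel) and in adult fins (right panel); grey points are other known sequences and red diamonds the miR-181 sequences. At 14 dpf the left arms lie near 0 and the right arms between −1.34 and −0.42, and in the adult the left arms lie between 1.35 and 2.44.

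How the family changes with age in wild type fish could be read from the control channel, within slide 1 for 3, 7 and 14 dpf. The left arms of miR-181b and miR-181c fell at each step. On the log2 scale miR-181c left was at 10.07 and 10.11 in the 2 control pools of 3 dpf. The 3 pools of 7 dpf ran from 9.58 to 9.60 and those of 14 dpf from 8.63 to 9.04, with no overlap between ages. It fell by 0.50 from 3 to 7 dpf (limma adjusted p = 0.000237) and by 0.71 from 7 to 14 dpf (limma adjusted p = 8.5e-06). miR-181b left fell by 0.44 and by 0.39 (limma adjusted p = 0.000950 and 0.00178), the first not called without 3 dpf replicate 2 (−0.40, limma adjusted p = 0.0152), the second not called with processed signals scaled to their 75th percentile (−0.22, limma adjusted p = 0.0675). For miR-181a left the differences of −0.17 and −0.14 were not called (limma adjusted p = 0.0453 and 0.0835). From 3 to 7 dpf 22.5% of the 378 sequences tested were called as lower, and from 7 to 14 dpf 16.6% of 368 were called as lower and 17.1% as higher.

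The right arms were lower at 7 dpf as well. All 8 fell from 3 to 7 dpf, with differences of −0.33 (miR-181b-1) to −1.75 (miR-181a-2) and limma adjusted p-values of 1.1e-06 to 0.00247. The fall of miR-181b-1 was not called without 3 dpf replicate 1, 3 dpf replicate 2 or 7 dpf replicate 2 (limma adjusted p = 0.0167, 0.0222 and 0.0112). The size depended on the background correction, since scaled processed signals gave −1.52 to −3.58 for the same 8. The control level of the miR-181a-2 right arm was 9.34 and 9.24 in the 3 dpf pools, ran from 7.52 to 7.56 at 7 dpf and lay from 7.94 to 8.71 at 14 dpf. From 7 to 14 dpf it rose by 0.73 (limma adjusted p = 0.00147), the miR-181a-1 right arm by 0.62 (limma adjusted p = 0.00545) and zfmir536 by 0.67 (limma adjusted p = 0.00190). These 3 have nearly the same sequence, and the rise of miR-181a-1 was not called without 14 dpf replicate 2, without 14 dpf replicate 3 or without any 1 of the 7 dpf replicates (0.40 to 0.65, limma adjusted p from 0.0133 to 0.0195). The other 5 ran from −0.11 to 0.49 and were not called. In the HRAS channel of slide 1 the mean level of miR-181a-2 was 7.36 at 7 dpf and 7.29 at 14 dpf. It was 7.35 and 7.27 for miR-181a-1 and 6.91 and 6.89 for zfmir536. Among the other 5, zfmir500 was at 6.44 and 6.35 and zfmir538 at 6.66 and 6.35. miR-181b-1 was at 6.47 and 6.44, miR-181b-2 at 6.56 and 6.48 and miR-181c at 6.39 and 6.20. These changes were not tested. The control signals at 14 dpf also enter the ratios of that age. Between heat-shocked and unshocked control larvae none of the 11 sequences was called, with differences of −0.19 to 0.15, against 1.55% of the 322 tested.

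**Figure D4:**
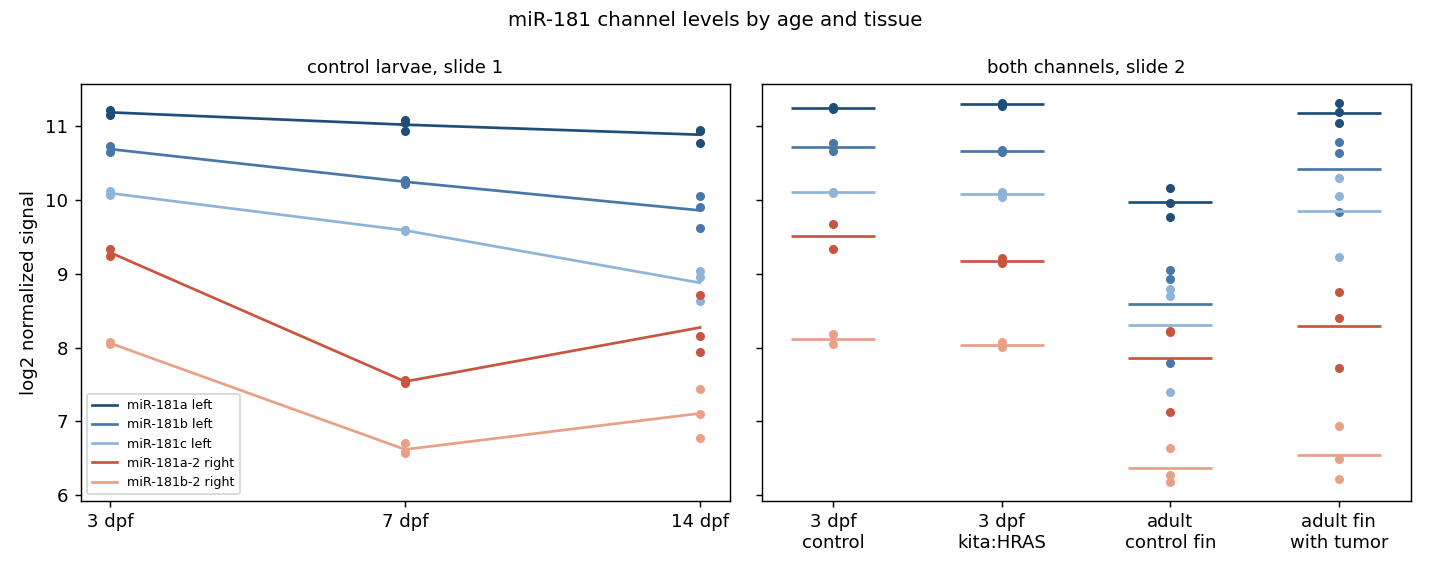
Log2 normalized signal (y axis) of 5 miR-181 sequences, in control larvae of slide 1 by age (left panel, lines join the means) and in both channels of slide 2 by tissue (right panel, bars are means); each point is 1 array. The left arms of miR-181b and miR-181c fall with age in the left panel, and in the right panel adult control fins lie below fins with tumor for the 3 left arms.

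The known sequences whose ratio followed the mean of the 3 left arms most closely over the 19 arrays were sought among 258 others well above background on at least 16 arrays. The 5 with the highest Pearson r were miR-138 left (r = 0.973), miR-34 left (0.966), miR-30e left (0.941), miR-10d left (0.934) and miR-193b right (0.931). In the adult fins their mean log2 ratios were 2.30, 2.66, 1.04, 0.73 and 2.11. miR-138 is a miRNA of the brain list, and miR-34 is known in mammals as a target of p53. Over the 16 larval arrays alone r was 0.57 for miR-138 left, 0.13 for miR-34 left, −0.31 for miR-30e left, −0.39 for miR-10d left and −0.07 for miR-193b right. The order thus rested on the 3 adult arrays, which share a slide.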

How the data were processed

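Total RNA was labelled with Hy3 (HRAS) and Hy5 (control) and hybridised to a custom Agilent array whose probes hold 22 bases antisense to a miRNA. Per the file headers the authors used Agilent Feature Extraction 10.7.3.1, while the labels name 9.5.3.1. The deposited intensity of each channel is linear, background-subtracted and dye-normalized, and the deposited log10 ratio is red over green. It was turned into log2 of HRAS over control. The value table deposited by the authors held the same ratios. Exact zeros, which were 36.6% to 61.5% of spots, were kept. Spots with outlier flags were left out, and probes of identical sequence were averaged. The 16 larval arrays were fitted together with limma 3.58.1 in R 4.3.3, as 5 group means, two-sided. Control levels were taken after normexp (offset 50), loess and Aquantile normalization and compared within slides. Figures were drawn with matplotlib 3.10.9. The number of arrays, 3 or 4 a group, limits the precision. Alternatives covered normalization, centring, filters, blocks, thresholds and left-out arrays, and keeping outlier-flagged spots or comparing ages within slide 1 was chosen after seeing the data. The procedure was tested on simulated data. Every known probe of the family was named, with the 5 sequences most like it. Members and marker lists were chosen with earlier results of these data known. Predicted hairpin probes were not analysed here.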

Additional observations from a re-analysis of the deposited data

Results flagged for a closer look

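The miR-181b-1 right arm stood out among the 4 kita:HRAS arrays at 3 dpf: its lowest ratio, −1.64 on replicate 4, was separated from the next array by 0.896 of the whole range. On that array its HRAS signal was not well above background. Ratios and both channel levels of the 11 sequences were screened in this group, 33 screens in all, and chance flags about 1 in 20.

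For the sequences listed here every adult array lay on the other side of 0 from every array of at least 1 larval group. The family was selected on its adult ratio, and the difference was not tested. Of all sequences tested, 31.1% were above and 42.9% below 0 on every adult array. Below 0 on every array were 27.1% (kita:HRAS, 3 dpf), 24.5% (7 dpf), 54.5% (14 dpf) and 19.4% (hsp70:HRAS). Above 0 were 35.1% in zic:HRAS and 31.6% in hsp70:HRAS. Opposite sides were not counted over all sequences. The left arms, with adult means of 1.35 (miR-181a), 2.44 (miR-181b) and 2.31 (miR-181c), were below 0 on all arrays of hsp70:HRAS and of kita:HRAS at 7 dpf, and miR-181a at 14 dpf too, where means lay between −0.17 and −0.06. The right arms with adult means of 0.597 (zfmir536), 0.791 (miR-181a-1), 1.05 (miR-181a-2) and 1.97 (miR-181b-2, dim) were below 0 on all kita:HRAS arrays at 3 and 14 dpf, and miR-181a-1 and miR-181a-2 at 7 dpf too. The miR-181b-1 right arm, with an adult mean of −0.665, was above 0 on all arrays of zic:HRAS and hsp70:HRAS. In the adult it was dim, and well above background on replicate 3 alone. The adult arrays shared slide 2 with kita:HRAS replicates 3 and 4 at 3 dpf, where the miR-181a-2 right arm was at −0.24 and −0.40 against 0.45 to 1.57 in the adult. The other larval groups lay on other slides, so for them slide and age or model cannot be told apart.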

How the results depend on the processing

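The share of all known sequences called was not counted for the alternatives. A count of called sequences was taken as kept if it stayed within 1.5 times its value. An adult median was taken as kept if it moved by less than the SD of the medians of the single arrays. A median with a wide spread could thus move further and still be kept. By these rules 326 of 340 values were kept, and the others follow. With normexp and loess the adult medians were 1.55 (left arms) and 0.12 (right arms, the dim ones included) in place of 2.31 and 0.67. At an adjusted p below 0.05 there were 3 right arms called at 3 dpf in kita:HRAS in place of 0 (3 also at an unadjusted p below 0.01), 2 sequences that differed between ages and 1 between models in place of 0, and 5 right arms higher in the control channel at 14 than at 7 dpf in place of 3. Fitted alone, the 14 dpf comparison called 0 right arms in place of 7. Scaled processed signals called 1 left arm and 6 right arms in the control channel from 7 to 14 dpf in place of 2 and 3. With 1 replicate left out, right arms called at 14 dpf were 5 to 7, sequences differing between ages 0 to 2 and between models 0 to 1, and in the control channel left arms called from 3 to 7 dpf 1 to 2 and right arms from 7 to 14 dpf 2 to 5. The cause was not tested. With all 4 kita:HRAS controls at 3 dpf and no slide term, the miR-181b-1 right arm did not fall from 3 to 7 dpf (0.0189, limma adjusted p = 0.920).

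The labels give groups the same replicate numbers, but nothing says that these mark a shared batch. Deviations of same-numbered arrays from their group means correlated between −0.41 and 0.33, and 5 of 16 arrays correlated best with their own number. With the replicate block 6 right arms were called at 14 dpf in place of 7, miR-181c at −0.75 (limma adjusted p = 0.0170) being lost, and no other count changed. In the filter that asks for both channels on every array miR-181c right was not tested at 14 dpf. Dim spots limit the right arms most, above all in the adult.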
